A study of Homo sapiens with 4 samples.

Results

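The genes described here are 56 genes that build and run the mitotic spindle, attach chromosomes to it and split the cell, taken from the deposited table by gene symbol. All 56 were found among the 19314 genes listed, and all 56 were among the 16595 genes with a value above 0 in at least 1 library, which were tested. RNA from U87, an established human malignant glioma line, was sequenced in 4 libraries. In 2 libraries PTPRN was knocked down (genotype PTPRN knockdown, titled PTP2). PTPRN is a member of the receptor-type protein tyrosine phosphatases found in secretory vesicles, and the paper describes its phosphatase domain as inactive. The other 2 carried the scrambled control (SCR). Per the study's methods, the PTPRN hairpins and the control sequence were cloned into the pLKO.1 vector and transfected. Both knockdown libraries carry the same name, PTP2, and the labels do not name the hairpin. The sources used here do not say that the 2 libraries of a group came from separate cultures, so p-values measure only the spread between these libraries, which may be technical.

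Mitosis is driven by cyclin B bound to the kinase CDK1, whose activity rises as cells leave G2. Kinetochores, protein assemblies on the centromeres, then bind spindle microtubules, and the spindle checkpoint holds back anaphase until every chromosome is attached. After the anaphase-promoting complex (APC/C) has marked cyclin B and securin for destruction, kinesins and the centralspindlin complex organise the midzone and the contractile ring. Transcripts of many of these genes rise together late in the cell cycle. Promoters of such genes often hold a cell cycle genes homology region (CHR), the binding site of the DREAM and MMB complexes. It often lies close to the start and downstream of CCAAT boxes. Proliferating glioma cells express mitotic genes at high levels, and several are used as markers of dividing cells. In RNA from whole cultures, a different share of dividing cells and a different amount of a transcript per cell cannot be told apart. The paper reports lower proliferation of U87 cells, and less tumour growth in mice, after PTPRN knockdown. Proliferation itself is not measured by the RNA levels given here.

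PTPRN itself was at 12.09 and 11.68 FPKM (mapped fragments scaled to transcript length and to the size of the library) in the knockdown libraries and at 84.84 and 85.02 FPKM in SCR. The knockdown libraries lay far below SCR, with a log2 fold change of -2.74 ± 0.03 (SE, n = 2 libraries a group) and an adjusted p of 0.000148 in limma on log2(FPKM + 1), adjusted over all genes tested. Every fold change below is on this scale, knockdown minus SCR, unless an FPKM ratio is named. The 2 libraries of a group correlated at 0.999 in both groups, and libraries of different groups at 0.961 to 0.962, across genes. A rough estimate of depth gave 18200000 and 18700000 reads for the knockdown libraries and 19800000 and 18300000 for SCR. The window of values searched bounded this estimate. The growth note in the labels names hCMEC/D3, a brain endothelial line, whereas the cell line label names U87. Of 11 endothelial markers with a value, 9 were under 1 FPKM in every library. All 11 summed to 4.2 and 4.85 FPKM in the knockdown libraries and 5.08 and 5.03 FPKM in SCR. Single markers moved both ways, with 3 called higher (ERG, KDR and TEK) and 2 lower (PECAM1 and VWF). PECAM1, the highest, was at 1.21 and 1.26 FPKM against 2.39 and 2.5 (log2 fold change -0.62). VWF was at 0.06 and 0.05 FPKM against 0.98 and 0.93 (-0.89). TEK, the other marker to reach 1 FPKM, was at 0.97 and 1.08 FPKM against 0.45 and 0.6 (0.41). ERG was at 0.68 and 0.94 FPKM against 0.07 and 0.07 (0.75). Of 11 glial markers with a value, 5 were under 1 FPKM in every library, among them GFAP and S100B, the classical astrocyte markers, and SOX2. VIM, an intermediate filament that many mesenchymal lines also make, gave most of the glial sum of 5098.68 and 4893.9 FPKM against 2170.2 and 2091.92, at 4766.13 and 4564.50 FPKM against 1997.70 and 1918.05. Of the 11 glial markers, 5 were called higher and 2 lower, beside 30.8% and 27.1% of all genes tested. Higher were VIM, CD44 (315.84 and 313.53 FPKM against 151.78 and 151.56), SLC1A3 and, at low levels, OLIG2 and FABP7. NES (nestin) was lower, at 3.12 and 3.39 FPKM against 12.96 and 14.24 (log2 fold change -1.78, adjusted p = 0.000407). So was GFAP, at 0.22 and 0.11 against 0.55 and 0.45 (-0.37, adjusted p = 0.0149).

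Promoter stretches of 5 of these genes are shown because they hold the CHR core and the CCAAT box in different arrangements and lie at genes that moved by very different amounts. Each is 150 bases of the RefSeq promoter window on GRCh38.p14, on the plus strand, from 130 bases before the transcription start to 20 after it. Capitals mark TTTGAA, the CHR core, and CCAAT, or their reverse complements. HMMR is at chr5:163460502-163460651, CCNB2 at chr15:59105016-59105165, PLK1 at chr16:23678759-23678908, CDC20 at chr1:43358851-43359000 and KIF4A at chrX:70289974-70290123.
HMMR: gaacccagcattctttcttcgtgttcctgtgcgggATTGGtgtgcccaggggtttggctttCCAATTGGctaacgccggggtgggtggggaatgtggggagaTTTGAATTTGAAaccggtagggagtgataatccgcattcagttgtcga
CCNB2: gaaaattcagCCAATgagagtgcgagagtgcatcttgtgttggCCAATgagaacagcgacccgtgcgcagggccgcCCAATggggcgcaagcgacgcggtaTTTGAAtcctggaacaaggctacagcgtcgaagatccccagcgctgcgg
PLK1: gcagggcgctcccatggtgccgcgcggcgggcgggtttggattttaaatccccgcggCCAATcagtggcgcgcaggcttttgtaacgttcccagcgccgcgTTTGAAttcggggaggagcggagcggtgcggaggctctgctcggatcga
CDC20: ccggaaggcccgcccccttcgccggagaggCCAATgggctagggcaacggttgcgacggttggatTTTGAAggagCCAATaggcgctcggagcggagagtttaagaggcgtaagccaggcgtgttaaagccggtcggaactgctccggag
KIF4A: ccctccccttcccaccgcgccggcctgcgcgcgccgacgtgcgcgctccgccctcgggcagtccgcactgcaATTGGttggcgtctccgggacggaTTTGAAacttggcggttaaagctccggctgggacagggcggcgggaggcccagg
HMMR had the largest rise of the 56 genes and KIF4A was the gene that fell, and both stretches hold a CHR core and a CCAAT box.

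The 56 genes were higher as a group after PTPRN knockdown. At an adjusted p of at most 0.05, 51 of 56 rose, 1 fell (KIF4A) and 4 did not pass (CDC25B, CENPA, CENPF and TOP2A). Over all genes tested, 30.8% were called higher and 27.1% lower, and among the 11272 genes with a mean of at least 1 FPKM, a level that all 56 reached, 41.1% were called higher. The median log2 fold change of the 56 genes was 0.75, beside 0.01 over all genes tested and 0.06 over genes with a mean of at least 1 FPKM. Their median FPKM ratio, knockdown over SCR, was 1.73, and 41 of 56 had a ratio of at least 1.5. In 54 of 56 genes both knockdown libraries lay above both SCR libraries, beside 39.7% of all genes tested. Together they made up 0.499% and 0.50% of all FPKM in the knockdown libraries and 0.293% in each SCR library. Their shift was moderate. At a stricter call, a fold of at least 2 with an adjusted p of at most 0.001, 7 rose (HMMR, AURKA, CCNB1, UBE2C, MYBL2, PTTG1 and TTK) and 0 fell, beside 2.63% higher and 4.06% lower over all genes and 3.79% higher among genes with a mean of at least 1 FPKM. Just inside that limit lay TTK at 1.03, and just outside it AURKB at 1.12, whose adjusted p was 0.00102, while 10 more genes lay between 0.9 and 1. With any 1 library left out, with the replicate number as a block, or with a pseudocount of 0.1, the strict call was lost by all 7 and by every other gene tested.

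**Figure D1:**
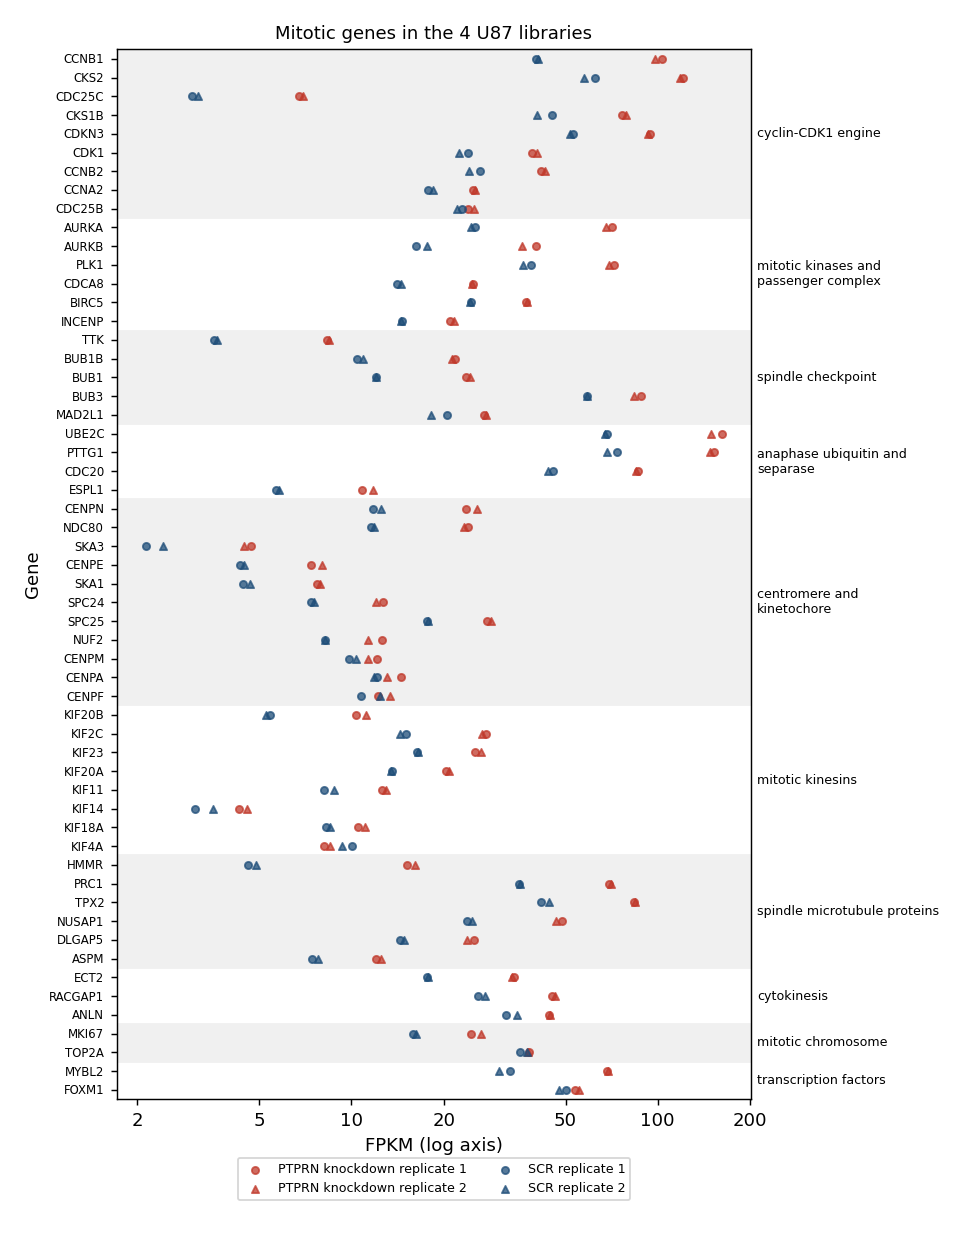
FPKM (log axis) of each of the 56 mitotic genes in the 2 PTPRN knockdown libraries (red) and the 2 SCR libraries (blue), circles for replicate 1 and triangles for replicate 2, grouped by role. In 54 genes both red points lie to the right of both blue points, while the groups overlap in CENPF and the red points lie to the left in KIF4A.

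Of the 9 genes of the cyclin-CDK1 engine, 8 rose and 1 did not pass, with a median log2 fold change of 0.82. CCNB1, which encodes cyclin B1, the main activator of CDK1 at mitotic entry (chr5:69167010-69178245, GRCh38), was at 103.53 and 97.96 FPKM after knockdown and at 40.06 and 40.67 in SCR. The groups were far apart beside the gap within each, and CCNB1 rose by 1.30 ± 0.04 (adjusted p = 0.000354). CKS2, a small CDK-binding subunit, was at 120.56 and 118.41 FPKM against 62.55 and 57.60, a rise of 0.98 ± 0.05 (adjusted p = 0.000718). CDC25C, a phosphatase that removes the inhibitory phosphates of CDK1, started low, at 3.01 and 3.16 FPKM in SCR, and reached 6.73 and 6.93. Its FPKM ratio of 2.21 against a log2 fold change of 0.94 shows how the added 1 FPKM understates the change of low genes. CDK1 itself rose by 0.75, CCNB2 (cyclin B2) by 0.72 and CCNA2 (cyclin A2, which acts from S phase on) by 0.45. The CDK subunit CKS1B and the CDK phosphatase CDKN3 rose by 0.85 and 0.82. CKS1B and CKS2 are paralogues, and how reads shared by close copies were counted is not given in the sources used here. CDC25B, the phosphatase that starts CDK1 activation at the centrosome, was at 23.94 and 25.13 FPKM against 23.01 and 22.13. Its groups did not overlap, but the difference of 0.12 (95% interval -0.01 to 0.24) gave an adjusted p of 0.0894.

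All 6 mitotic kinase and chromosomal passenger genes rose, with a median of 0.83. AURKA, the centrosome and spindle kinase Aurora A (chr20:56369389-56392337), was at 71.05 and 67.87 FPKM after knockdown and at 25.30 and 24.58 in SCR. Its rise of 1.44 ± 0.04 (adjusted p = 0.000310, the smallest of the 56) was the next largest after that of HMMR. AURKB, the kinase of the chromosomal passenger complex, was at 39.94 and 36.17 FPKM against 16.25 and 17.66. Its libraries were further apart within groups than those of AURKA, and it rose by 1.12 ± 0.07 (adjusted p = 0.00102). The other subunits of that complex rose by less, by 0.76 for CDCA8 (borealin), 0.59 for BIRC5 (survivin) and 0.52 for INCENP (the scaffold). PLK1, a kinase active from mitotic entry to cytokinesis, rose by 0.90, from 38.46 and 36.36 FPKM to 72.05 and 69.25.

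All 5 spindle checkpoint genes rose, with a median of 0.94. TTK, the kinase MPS1 that starts checkpoint signalling at unattached kinetochores, was at 8.31 and 8.45 FPKM against 3.55 and 3.63, with little spread in either group. TTK rose by 1.03 ± 0.03 (adjusted p = 0.000336). BUB1B (BUBR1, a part of the inhibitor of the APC/C) was at 21.83 and 21.33 FPKM against 10.44 and 10.90, a rise of 0.95 ± 0.04, and the kinase BUB1 rose by 0.94. BUB3, their shared partner, and MAD2L1 (MAD2) rose by 0.53 and 0.48. All 4 genes of the anaphase step rose as well, with a median of 1.00. UBE2C, the ubiquitin-conjugating enzyme of the APC/C, had the highest level of the 56 genes after knockdown, at 162.07 and 149.32 FPKM against 68.49 and 67.33. It rose by 1.18 ± 0.05 (adjusted p = 0.000536). PTTG1 (securin, the inhibitor of separase) was at 152.16 and 147.89 FPKM against 73.59 and 68.54, and rose by 1.07 ± 0.05 (adjusted p = 0.000565). Near-identical copies of PTTG1 exist in the genome, so its level is uncertain to the extent that reads were split among them. CDC20, the activator of the APC/C, and ESPL1 (separase) rose by 0.92 and 0.87.

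Of 11 centromere and kinetochore genes, 9 rose and 2 did not pass, with a median of 0.66. CENPN, which reads centromeric nucleosomes, was at 23.57 and 25.72 FPKM against 11.77 and 12.44 and rose by 0.97 ± 0.06 (adjusted p = 0.000928). NDC80, the microtubule-binding subunit of the complex of the same name, was at 23.94 and 23.37 FPKM against 11.61 and 11.83 and rose by 0.95 ± 0.03 (adjusted p = 0.000375). Its partners rose by 0.66 (SPC24), 0.64 (SPC25) and 0.49 (NUF2). SKA3 and SKA1, which couple kinetochores to shrinking microtubules, rose by 0.77 and 0.67, and CENPE, a kinetochore kinesin, by 0.69. SKA3 had the lowest level of the 56 genes in SCR, at 2.13 and 2.42 FPKM. From the rough depths, 121 reads or more lay behind each of its values. The deposited table places SKA1 on an alternate chromosome 18 contig. CENPM, of the inner kinetochore network, rose by 0.20 (adjusted p = 0.0315), a call lost with any 1 library left out. CENPA, the histone H3 variant that defines centromeres, was at 14.55 and 13.02 FPKM against 12.07 and 11.81, a difference of 0.19 (95% interval 0.01 to 0.37, adjusted p = 0.0688). It passed the test when genes under 1 FPKM were filtered out, and without knockdown replicate 2. CENPF, a large outer kinetochore protein, was at 12.23 and 13.33 FPKM against 10.72 and 12.41. It was the one gene of the 56 whose groups overlapped, with a difference of 0.14 (95% interval -0.11 to 0.39, adjusted p = 0.274).

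The 8 mitotic kinesins included the gene that fell. KIF4A, a chromokinesin that binds PRC1 and limits microtubule growth in the midzone (chrX:70290029-70420924), was at 8.12 and 8.52 FPKM after knockdown and at 10.01 and 9.28 in SCR. Both knockdown libraries lay below both SCR libraries, as in 35.8% of all genes tested. The log2 fold change was -0.19 ± 0.05 (adjusted p = 0.0409), and the call was lost with any 1 library left out, with the replicate block and with a pseudocount of 0.1, all with the same sign. The other 7 kinesins rose, and the median of the 8 was 0.56. KIF20B, a midbody kinesin, was at 10.32 and 11.15 FPKM against 5.43 and 5.27 and rose by 0.89 ± 0.05 (adjusted p = 0.000759). KIF2C (MCAK, which takes microtubules apart at centromeres) was at 27.57 and 26.67 FPKM against 15.04 and 14.42 and rose by 0.84 ± 0.04 (adjusted p = 0.000574). KIF23 (the kinesin of centralspindlin), KIF20A (which carries the passenger complex to the midzone) and KIF11 (the bipolar spindle motor Eg5) rose by 0.62, 0.57 and 0.55. KIF14 and KIF18A rose by 0.33 each. KIF14 lost the call with any 1 library left out, and KIF18A without either SCR library.

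All 6 spindle microtubule proteins rose, with a median of 0.95. HMMR, a hyaluronan receptor that also binds spindle microtubules (chr5:163460511-163491945), was at 15.14 and 16.07 FPKM after knockdown and at 4.59 and 4.88 in SCR. Its rise of 1.53 ± 0.05 (adjusted p = 0.000356) was the largest of the 56, an FPKM ratio of 3.30. The cross-linker of antiparallel microtubules PRC1 was at 69.34 and 70.23 FPKM against 35.13 and 35.63 and rose by 0.96 ± 0.03 (adjusted p = 0.000344). TPX2, the activator of Aurora A, NUSAP1, DLGAP5 and ASPM, a spindle pole protein, rose by 0.96, 0.94, 0.70 and 0.62. The 3 cytokinesis genes rose too. ECT2, the exchange factor that switches on RhoA at the cell equator, was at 33.87 and 33.34 FPKM against 17.71 and 17.79 and rose by 0.88 ± 0.03 (adjusted p = 0.000371). RACGAP1, the partner of KIF23 in centralspindlin, was at 45.12 and 46.18 FPKM against 25.86 and 27.29 and rose by 0.76 ± 0.04 (adjusted p = 0.000738). ANLN, the scaffold of the contractile ring, rose by 0.40.

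Genes that are often read as marks of proliferation did not move alike. MKI67, the Ki-67 surface protein of mitotic chromosomes, was at 24.64 and 26.53 FPKM against 15.88 and 16.20 and rose by 0.64 ± 0.05 (adjusted p = 0.00143). TOP2A, the topoisomerase that untangles chromosomes before anaphase, was at 37.95 and 37.84 FPKM against 35.62 and 37.47. Its groups did not overlap, but the gap between the nearest libraries was smaller than that between the SCR libraries. The difference was 0.05 (95% interval -0.06 to 0.16, adjusted p = 0.335), it turned below 0 under quantile normalization and with length and GC trends removed, and it passed at 0.21 with chromosome medians removed. MYBL2 (B-MYB, of the MMB complex) was at 68.51 and 68.65 FPKM against 32.84 and 30.39, and rose by 1.09 ± 0.05 (adjusted p = 0.000543). FOXM1, the forkhead factor that acts with it at G2/M promoters, was at 53.83 and 55.45 FPKM against 50.04 and 47.52. Its rise of 0.16 ± 0.04 (adjusted p = 0.0376) was the smallest called change of the 56, and was lost under 8 of 13 alternatives and turned to -0.02 under a further one.

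**Figure D2:**
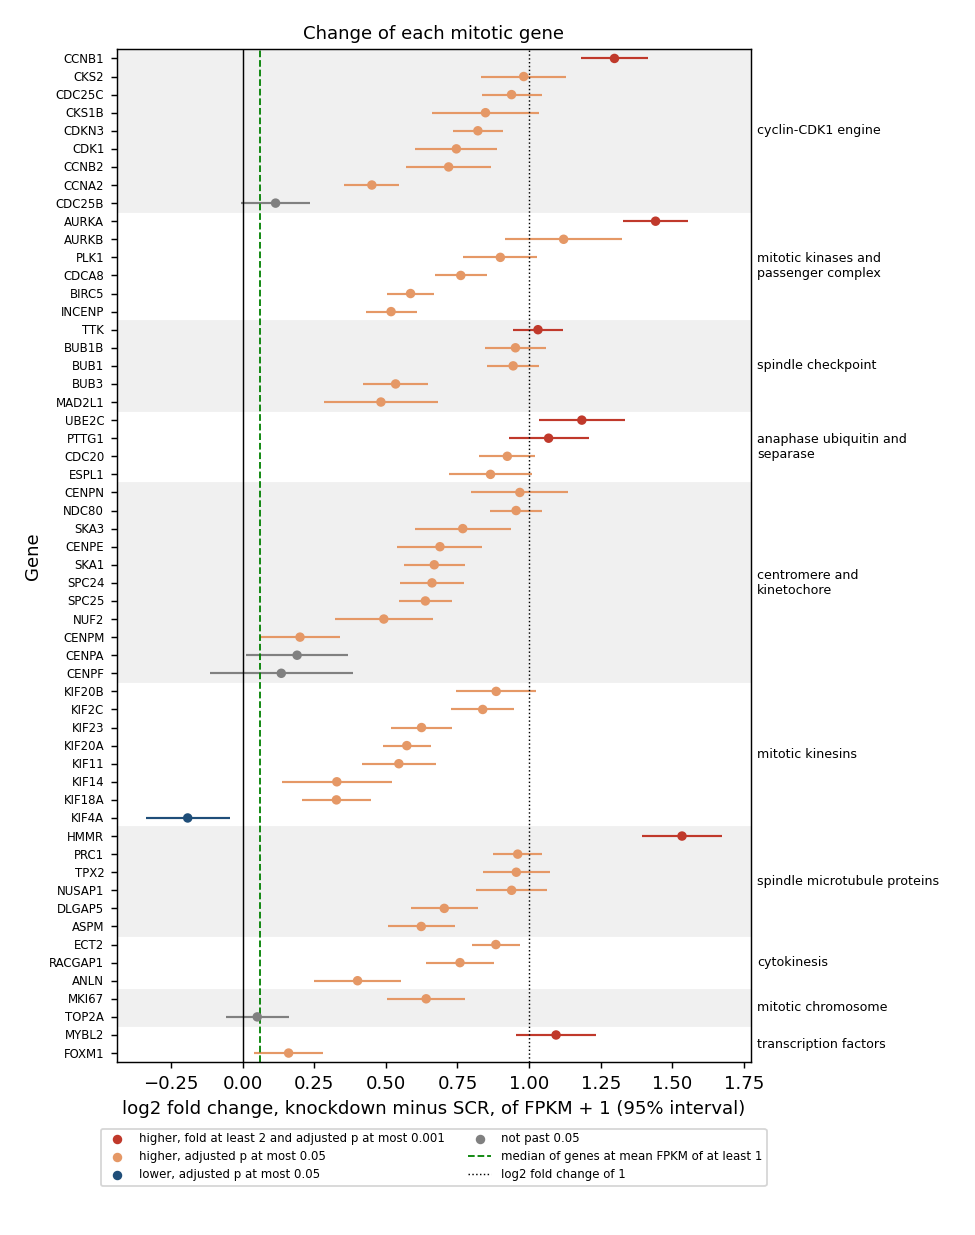
Log2 fold change of FPKM + 1, knockdown minus SCR, of each of the 56 genes with its 95% interval from limma, grouped by role and coloured by call. The 7 strict calls (dark red) lie beyond the dotted line at 1, AURKB lies beyond it without the strict call, and KIF4A (blue) is the one point left of 0.

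The rises were unequal, and the ratios between some partners shifted with them. CCNB1 stood at 2.66 and 2.43 times the FPKM of CDK1 after knockdown and at 1.66 and 1.82 times in SCR, whereas CCNB2 over CDK1 was close to level, at 1.07 and 1.06 against 1.09 and 1.08. In the passenger complex AURKB over INCENP was 1.90 and 1.68 against 1.11 and 1.22, and BIRC5 over INCENP 1.77 and 1.74 against 1.69 and 1.68. In the NDC80 complex the ratio of NDC80 to NUF2 was 1.90 and 2.07 against 1.42 and 1.45, while that of SPC24 to SPC25 overlapped between groups, at 0.458 and 0.422 against 0.417 and 0.423. Groups did not overlap in CCNB2 over CDK1 or BIRC5 over INCENP either, though these ratios moved little. Other pairs shifted too. CDCA8 over INCENP was 1.19 and 1.15 against 0.962 and 0.998, and NDC80 over SPC25 0.864 and 0.818 against 0.659 and 0.663. In the checkpoint, BUB1B over BUB3 was 0.248 and 0.256 against 0.178 and 0.185. PTTG1 over ESPL1, securin over its target, overlapped at 14.1 and 12.6 against 12.96 and 11.9. The widest gap was that of PRC1 over its partner KIF4A, at 8.54 and 8.24 against 3.51 and 3.84. MKI67 over TOP2A was 0.649 and 0.701 against 0.446 and 0.432. These ratios are descriptions of mRNA levels, and with 2 libraries against 2 an exact permutation test cannot go below p = 0.333.

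**Figure D3:**
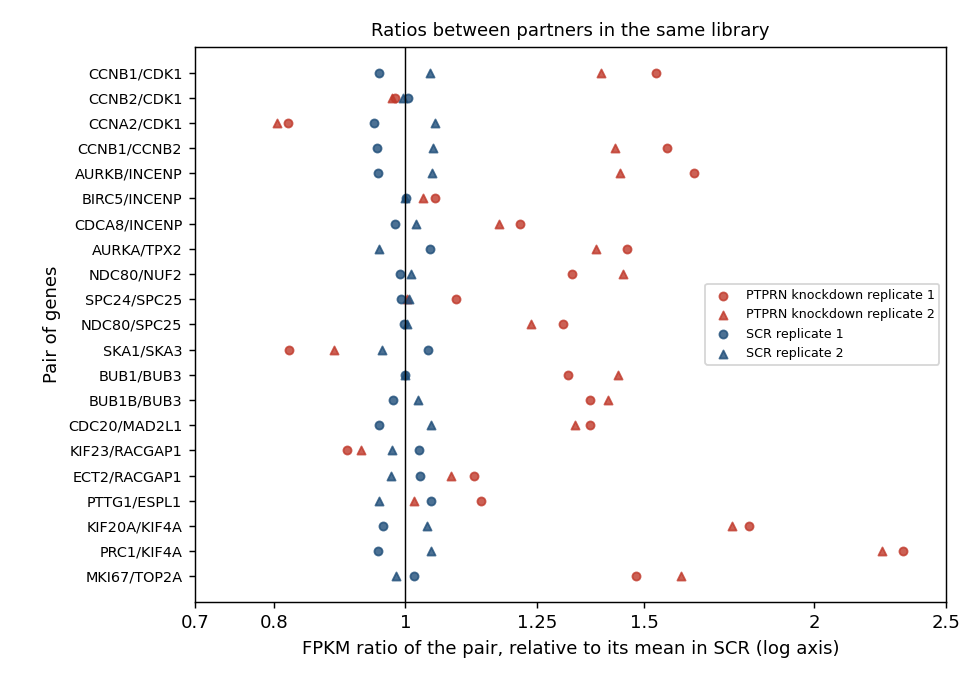
FPKM ratio between 2 genes of the same complex or step in each library, divided by the mean ratio of that pair in SCR (log axis), red for PTPRN knockdown and blue for SCR. PRC1/KIF4A lies furthest from 1 after knockdown, whereas SPC24/SPC25 and PTTG1/ESPL1 overlap between groups.

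Of 114 other mitotic genes in 7 lists, 88 rose and 7 fell, with a median of 0.49, beside 30.8% of all genes called higher and 27.1% lower. All 8 condensin genes rose (median 0.62), led by NCAPG, a subunit of condensin I, at 20.53 and 20.86 FPKM against 7.55 and 7.96, a rise of 1.31, and by NCAPH, another of its subunits, at 0.88. Of 12 cohesin genes and regulators 10 rose, with SGO1 (shugoshin, protector of cohesin) and CDCA5 (sororin) furthest, at 1.22 and 1.11. Among 27 other kinetochore genes 20 rose and 2 fell, and CENPK and DSN1 rose most, by 1.43 and 1.18. Of 22 other spindle and cytokinesis genes, 20 rose and 1 fell, with TROAP at 1.33 and DEPDC1 at 1.15. Among 13 other entry regulators 9 rose, led by the phosphatase CDC25A at 1.58 and the kinase MASTL at 1.16. CDC25A, CDC25C and CDC25B thus spanned 1.58, 0.94 and 0.12 within 1 family. Of 15 MuvB and E2F regulators 12 rose and 1 fell, with RBL1 (p107) at 1.34 and E2F1 at 1.05. The 12 include E2F7, which was near the floor at 0.08 and 0.07 FPKM against 0 and 0. The 17 core subunits and regulators of the APC/C had the lowest median of the 7 lists, 0.22, with 9 higher and 3 lower. CDC23 and UBE2S, which extends ubiquitin chains, rose by 0.79 and 0.53. Outside mitosis, 37 of 40 G1/S and replication genes rose and 0 fell, with a median of 0.73, close to the 0.75 of the 56 mitotic genes. Of the 127 genes that the deposited table assigns to the KEGG cell cycle pathway beside these 56, 72 rose and 23 fell, with a median of 0.31.

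**Figure D4:**
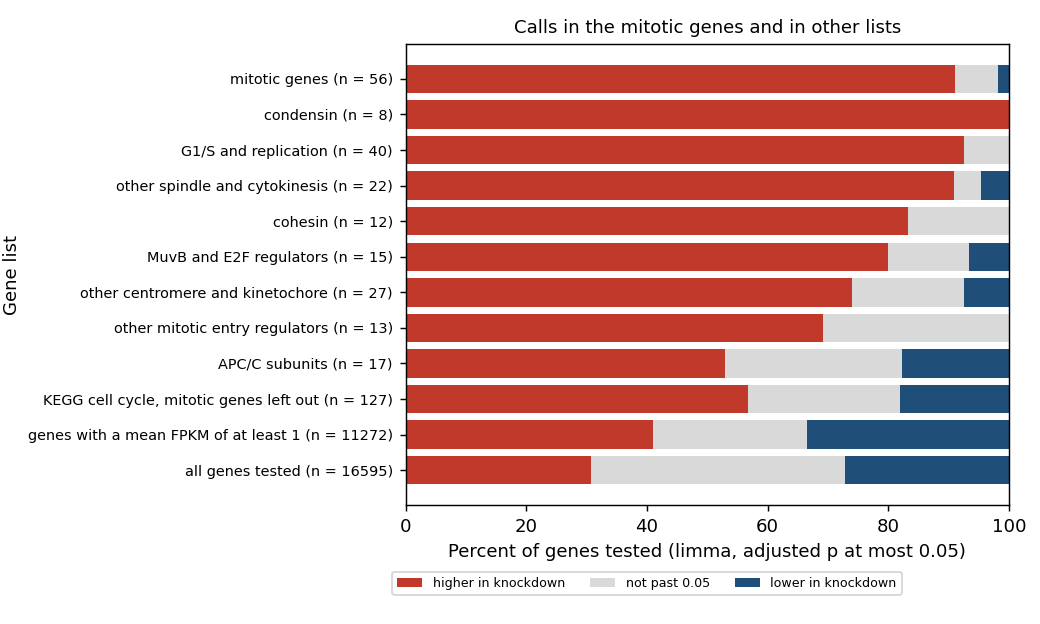
Percent of genes called higher (red), lower (blue) or not past an adjusted p of 0.05 (grey) in each list, with the number tested in brackets. The 56 mitotic genes are called higher in 91.1% and the G1/S genes in 92.5%, beside 30.8% of all genes tested. The list labelled APC/C subunits, which also holds regulators, is called higher in 52.9%.

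Of the 7 strict calls, CCNB1, PTTG1 and HMMR lie on chromosome 5, AURKA, UBE2C and MYBL2 on chromosome 20 and TTK on chromosome 6. The other genes of these chromosomes were also shifted, with a median of 0.33 over 520 other genes of chromosome 5 and 0.28 over 290 of chromosome 20 (mean of at least 1 FPKM). The 5 mitotic genes on each had medians of 1.07 and 1.09. On chromosome 22, where the other genes had a median of -0.35, CENPM rose by 0.20. With the median of each chromosome removed from every library, 51 of the 56 genes rose, with TOP2A gained and FOXM1 lost, 2 fell (KIF4A and CDC25B), the median was 0.67 and 5 passed the strict call. HMMR, AURKA and TTK then stood at 1.21, 1.16 and 1.21, and CCNB1, UBE2C, MYBL2 and PTTG1 were below 1, at 0.97, 0.90, 0.81 and 0.74. This correction was chosen after seeing the data, and the part of copy number in these shifts was not tested.

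Fold changes were lower in the longest transcripts. Across the 56 genes, Spearman's rho between log2 fold change and transcript length was -0.32, and it was -0.11 across 11272 genes. The 14 genes with transcripts of up to 2000 bases had a median of 0.78, the 28 up to 4000 bases 0.80 and the 14 longer ones 0.58, beside 0.16, 0.07 and 0.00 over genes of the same lengths. TOP2A, CENPF and KIF4A are among the 14 longer ones, and the other 11 of these rose. CENPA and CDC25B, which did not pass either, have shorter transcripts. With trends on length and GC content removed, the median of the 56 was 0.61 and 50 rose. The part of RNA quality in this trend was not tested. Exons of 20 of the 56 genes overlap those of another gene in GENCODE 29, in 17 cases on the opposite strand, and whether counting used the strand is not given in the sources used here. Among them, HMMR overlaps HMMR-AS1, FOXM1 overlaps ITFG2 and KIF4A overlaps PDZD11. Of the 36 genes without such an overlap 33 rose, with a median of 0.77.

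The promoters of these genes shared sequence that the choice of genes did not use. RefSeq windows of 300 bases, from 250 before to 50 after the start, were at hand for 47 of the 56 genes. The 9 without a window were AURKA, UBE2C and TTK, all strict calls, and TPX2, RACGAP1, BIRC5, BUB3, CENPM and FOXM1. The comparisons below leave them out. The CHR core TTTGAA, on either strand, was in the windows of 36 of the 47 (76.6%), beside 14.8% of 13211 other genes. Close to the start, from 60 bases before to 20 after, it was held by 27 (57.4%), beside 3.90%. CCAAT was in 38 (80.9%), beside 42.9%, and both TTTGAA and CCAAT in 30 (63.8%), beside 6.09%. The E2F motifs TTTGGCGC and TTTCCCGC were in 2 (4.26%), beside 4.05%. Holding TTTGAA did not go with a larger rise among the 47. The median was 0.73 in the 36 genes that hold it and 0.84 in the 11 that do not. Of these 11, BUB1 and CDC25B hold the variant TTCGAA. Either form was in 38 (80.9%), beside 16.5% of other genes. The median was 0.73 in these 38 and 0.84 in the 9 with neither. KIF4A, TOP2A, CENPF and CENPA all hold TTTGAA, and AURKB, CCNB1, MYBL2 and PTTG1 do not in these windows. In the stretches printed above, HMMR holds it in tandem and CCNB2 and PLK1 hold it just before the start behind 1 or more CCAAT boxes, and KIF4A has the same order of a CCAAT box and a CHR core. These are letter matches, and no binding was measured.

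**Figure D5:**
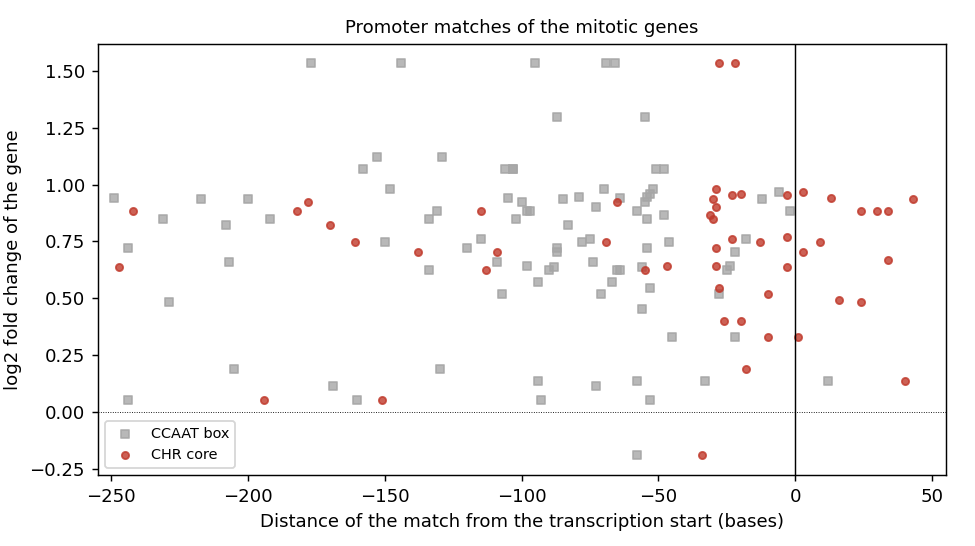
Position of each match to the CHR core (red circles) and the CCAAT box (grey squares) relative to the transcription start, in bases, against the log2 fold change of the gene, for the 47 mitotic genes with a promoter window. In 27 of the 47 genes a CHR match lies between 60 bases before and 20 after the start, among them KIF4A, the point below 0.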

How the data were processed

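RNA of 4 U87 libraries (2 PTPRN knockdown, 2 SCR) was sequenced by BGI as single-end 50-base reads on a BGISEQ-500. The authors deposited FPKM values per gene, and HISAT2 2.1.0 and hg19 are named in the submitters' processing notes. Gene positions in the table lie on GRCh38. The counting tool and its use of strand are not given in the sources used here. Fold changes and p-values of the authors' own comparisons are also in the files and were not used.

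Values were analysed as log2(FPKM + 1) with limma 3.58.1 (lmFit and eBayes, R 4.3.3) over 16595 genes, with no covariate and Benjamini-Hochberg adjustment. The strict limits, a fold of 2 and 0.001, follow the study's methods, but the fold was taken on FPKM + 1. By FPKM ratio, CDC25C, CENPN, BUB1B, NDC80, KIF20B and BUB1 would pass both limits as well. Depth was estimated from the FPKM that 1 read gives in short genes of 1 transcript. Only values within a fixed window were kept, which limits the depths that could come out, so depths and read numbers are rough. The 56 genes and all lists were chosen with earlier results of these data known. The genes named with all 4 values were those past the strict call, the 2 with the largest change in each role, those lower and those not past 0.05, and others are given more briefly. From each list of other mitotic genes the 2 largest changes at a mean of at least 1 FPKM were named, and E2F7 was named for its low level. CDC25C, PLK1 and the chromosomes 5 and 20 were singled out after their values were seen. Of 13 alternatives, 2 (length and GC trends, chromosome medians) were added after seeing the data. The fit was tested on simulated data.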

Additional observations from a re-analysis of the deposited data

How the results depend on the processing

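The counts in both directions and the median of the 56 genes were recomputed under 13 alternatives. Of the 51 rises, 43 held under every one. The 8 others were CENPM, FOXM1, KIF14, KIF18A, MAD2L1, ANLN, NUF2 and CKS1B. Higher counts ranged from 46 to 52, against 51. With a pseudocount of 0.1 or the replicate block, 49 rose, 0 fell and 0 passed the strict call, and over all genes 0 passed it in place of 437 higher and 674 lower. With a pseudocount of 0.1 and an eBayes trend, 12 passed it. With any 1 library left out, 46 rose (range 46 to 46), 0 fell (range 0 to 0), 0 passed the strict call (range 0 to 0), and the median lay between 0.73 and 0.75. Over all genes, 3275 to 3375 were then called higher in place of 5107, and 2884 to 2957 lower in place of 4496, with fewer samples in the fit. MAD2L1 and ANLN lost the call without either knockdown library, NUF2 and KIF18A without either SCR library, CENPM, KIF4A, KIF14 and FOXM1 without any 1 of the 4, and CKS1B without knockdown replicate 2.

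The median was 0.71 under median-ratio scaling and under quantile normalization, 0.61 with length and GC trends removed and 0.67 with chromosome medians removed, where 2 genes fell. TOP2A reversed to -0.0033 under quantile normalization and to -0.049 with length and GC trends removed. With chromosome medians removed, CDC25B reversed to -0.17 and FOXM1 to -0.021, while with length and GC trends removed CDC25B rose by 0.34 and MAD2L1 and KIF18A, at 0.13 and 0.12, did not pass. Chromosome medians removed also changed all genes, to 4895 higher and 6202 lower. The cause of these changes was not tested. Same-numbered libraries share only a number, with a correlation of their deviations of 0.064. Beside the strict calls, the replicate block changed the calls at 0.05 of CENPM, KIF4A and FOXM1 and of no other gene of the 56. With 2 libraries a group, differences under about 0.2 on the log2 scale were at the limit of what passed.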
